A study of Mus musculus with 6 samples.

Results

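The 9 genes described here encode transcription factors that specify oligodendrocytes or drive their maturation: Olig1, Olig2, Sox10, Nkx2-2, Nkx6-2, Myrf, Zfp488, Zfp536 and Tcf7l2. They were chosen by name, with earlier results of these data known. Each matched 1 of the 38293 Ensembl genes in a table of read counts. All 9 passed the filter on low counts, which left 16966 genes for testing.

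The counts came from bulk RNA sequencing of live tdTomato-positive cells sorted from whole spinal cords of female mice. In 3 libraries the mice had EAE (experimental autoimmune encephalomyelitis), in which the immune system is made to attack myelin of the brain and spinal cord, and 3 further libraries were labelled Control. Both groups had the genotype NG2-CreERTM:Rosa-tdTomato/+:Cx3cr1GFP/+, so the Control mice carried every allele that the EAE mice did. The tissue of both groups was dissociated with actinomycin D, which blocks transcription. The red reporter is switched on by an inducible Cre driven from Cspg4, which encodes NG2. This driver is active in oligodendrocyte precursors and also in pericytes and smooth muscle cells of vessels, and the reporter stays on in the descendants of a labelled precursor. The Cx3cr1 allele carries green fluorescent protein in place of a chemokine receptor of microglia and monocytes. The sources used here do not give ages, the day after EAE induction or whether a library was 1 animal. The p-values therefore reflect only how these samples varied, which may be technical.

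Oligodendrocytes arise from cycling precursors that leave the cell cycle, pass a short committed stage and then make myelin. Olig2 and Sox10 are active throughout this path. Sox10 switches on Myrf as precursors differentiate, and Sox10 and Myrf then act together on myelin genes. Tcf7l2, Nkx2-2 and Zfp488 are linked to the step at which precursors begin to differentiate. In demyelinating disease the same path is used to replace lost oligodendrocytes.

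Of the 9 factors, Zfp488 and Tcf7l2 rose in EAE, by 2.44-fold and 2.18-fold, and no factor fell. The other 7 did not pass the test, and the fitted fold of 6 of them was at most 1.23 in size, with Nkx2-2 at 1.42. The edgeR quasi-likelihood test called 7.14% of all tested genes at an adjusted p under 0.05, 2.82% of them higher and 4.33% lower, against 2 of 9 factors higher and 0 lower. An unadjusted p under 0.05 was reached by 3 of 9 factors, beside 20.2% of all tested genes, and DESeq2 and limma-voom each called 2 higher and 0 lower. The median log2 fold change of the 9 was 0.28, beside 0.0040 over all tested genes. Because the 9 were chosen with earlier results of these data known, these contrasts with all tested genes are descriptive.

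The promoter windows of the 2 factors that rose are shown because these were the called ones. Shared control of the 2 genes was not tested. They are RefSeq sequences of GRCm38.p6, from 250 bases before to 50 bases after the annotated start, printed 5′ to 3′ on the gene's strand. Windows were at hand for 6 of the 9 factors. The Zfp488 window lies at chr14:33978715-33979014 on the minus strand, and the window of the first Tcf7l2 start at chr19:55741560-55741859 on the plus strand.
Zfp488: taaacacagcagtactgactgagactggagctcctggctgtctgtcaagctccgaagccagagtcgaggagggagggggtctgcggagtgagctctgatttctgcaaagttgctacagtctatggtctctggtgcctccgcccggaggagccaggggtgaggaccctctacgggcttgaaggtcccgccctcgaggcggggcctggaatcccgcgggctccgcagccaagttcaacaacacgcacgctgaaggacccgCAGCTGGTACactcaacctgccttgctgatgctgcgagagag
Tcf7l2: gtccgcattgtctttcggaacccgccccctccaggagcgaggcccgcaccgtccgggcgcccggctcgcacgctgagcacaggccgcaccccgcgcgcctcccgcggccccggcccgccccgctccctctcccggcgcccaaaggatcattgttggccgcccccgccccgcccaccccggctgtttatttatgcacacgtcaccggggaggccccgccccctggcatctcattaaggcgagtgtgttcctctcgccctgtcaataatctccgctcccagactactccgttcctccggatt

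Capitals mark matches to any of 4 motifs searched on both strands: the E-box CANNTG that factors such as Olig2 bind, the TCF/LEF motif ATCAAAG, the SOX motif ACAAAG and the Myrf motif CTGGNAC. The Zfp488 window held 1 E-box from base 259 and 1 Myrf match from base 262, and these overlap in the single run of capitals. The first Tcf7l2 window held no match to any of the 4. The second RefSeq window of Tcf7l2, at chr19:55895071-55895370, held 1 SOX match. Among 32851 windows of the same length, 72.3% held an E-box, 19.3% the Myrf motif, 18.7% the SOX motif and 3.73% the TCF/LEF motif. Of the 7 windows of the factors, 3 held an E-box, 1 the Myrf motif, 1 the SOX motif and 0 the TCF/LEF motif. The GC content was 61.3% in the Zfp488 window and 70.0% in the first Tcf7l2 window, beside a median of 52.7%. A match describes letters in the window and is not a measured binding site.

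Total counts per library were between 22141522 and 28734798 reads, and each factor had between 1007 and 40676 reads in every library. Values are CPM, read counts scaled to a common library size after TMM (trimmed mean of M-values) adjustment. Markers of committed precursors and newly formed oligodendrocytes summed to 5145 to 5888 CPM in EAE libraries and 2509 to 2964 CPM in Control libraries. Those of mature oligodendrocytes and myelin summed to 44475 to 62036 CPM in EAE and 42602 to 48544 CPM in Control. Pericyte and smooth muscle markers summed to 1014 to 1292 CPM in EAE and 4283 to 7060 CPM in Control, and endothelial markers to 403 to 514 CPM in EAE and 1674 to 2765 CPM in Control. Myeloid markers summed to 55.1 to 424 CPM in EAE and 41.1 to 55.1 CPM in Control. Precursor markers rose for 5 of 18 tested genes and fell for 1, with 1 risen without EAE replicate 1 and 0 without Control replicate 1 or 2. The precursor marker count lower was 0 without EAE replicate 1 or 2 or Control replicate 1 or 2, and 2 without EAE replicate 3. Of mature markers 2 of 24 rose, with 0 without any 1 Control library and 4 without EAE replicate 2 or 3. The mature markers Opalin and Ndrg1 were called lower without EAE replicate 2. Among tested markers of other cells, 4 of 14 myeloid, 2 of 10 astrocyte and 2 of 8 neuron genes rose, 1 neuron and 4 of 7 fibroblast genes fell, and 0 of 7 Schwann cell genes were called. The astrocyte genes that rose were Gfap and S100b, and 8 were not called. Of the neuron genes, Tubb3 and Map2 rose, Stmn2 fell and 5, Snap25 and Syt1 among them, were not called. The myeloid count higher was 0 without Control replicate 1 or 2, 1 without EAE replicate 1 or Control replicate 3, and 2 without EAE replicate 3. The neuron count higher was 0 without Control replicate 1 or 2 and 1 without EAE replicate 1 or Control replicate 3, and the neuron count lower was 0 without any 1 library other than Control replicate 3. The astrocyte count was 1 without Control replicate 2. Leaving out EAE replicate 1 gave 2 fibroblast genes lower, and leaving out Control replicate 1 gave 1. Cspg4 itself had 168, 160.05 and 290 CPM in EAE replicates 1, 2 and 3, against 355, 374 and 347 CPM in Control replicates 1, 2 and 3 (edgeR adjusted p = 0.0764). The part of these shifts in the results on the 9 factors was not tested. The ratios to Sox10 and the scaling to Olig1, Olig2 and Sox10 do not test a shift between stages of the lineage. Olig2 and Sox10 are active throughout it. In bulk samples, fewer cells of a type and less RNA per cell cannot be told apart.

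**Figure D1:**
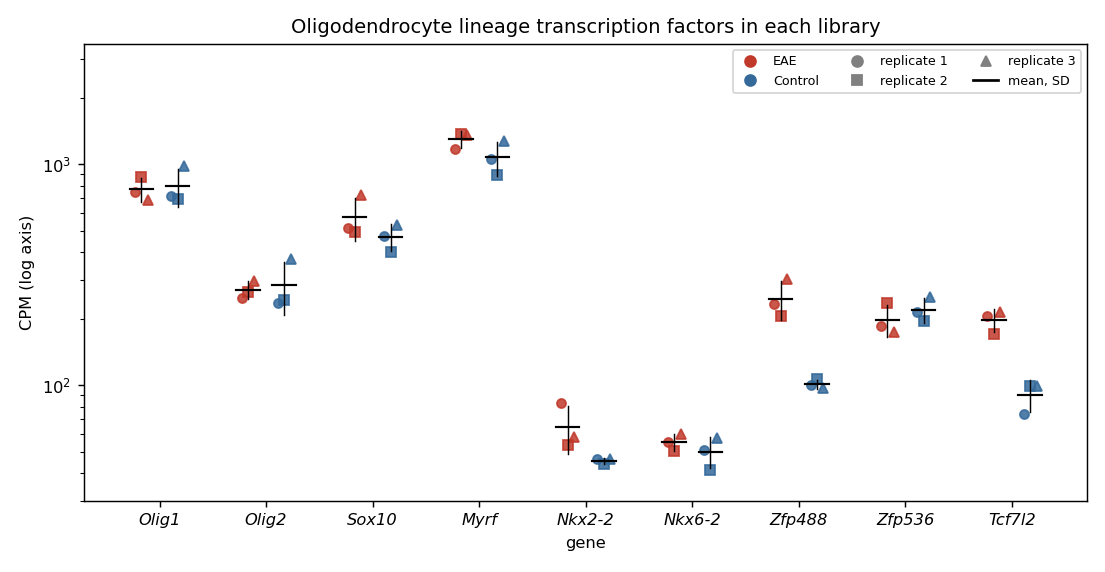
CPM of the 9 transcription factors in each library, on a log axis, with EAE libraries (red) left of Control libraries (blue); symbols mark replicate numbers, horizontal bars the mean and vertical bars the SD (n = 3). The EAE points of Zfp488 and Tcf7l2 lie at 171 to 302 CPM, above all Control points at 73.8 to 106 CPM, while those of the Olig genes, Sox10, Myrf, Nkx6-2 and Zfp536 overlap.

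Zfp488 is a zinc finger protein of the oligodendrocyte lineage that binds Olig2 and promotes differentiation (ENSMUSG00000044519, chromosome 14, 33967070 to 33978764, minus strand, GRCm38). It had 233, 206 and 302 CPM in EAE replicates 1, 2 and 3, against 100.2, 106 and 97.2 CPM in Control replicates 1, 2 and 3. Every EAE library was above every Control library. The mean was 247 ± 49.4 CPM in EAE and 101 ± 4.58 CPM in Control (SD, n = 3 each). Its log2 fold change was 1.29 ± 0.17 (SE; 95% interval 0.90 to 1.67; edgeR adjusted p = 0.00367). It was between 1.13 and 1.40 in the 6 fits that left out 1 library, with a call in each (edgeR adjusted p up to 0.0305).

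Tcf7l2, an HMG-box factor that carries Wnt and beta-catenin signals to DNA and peaks in newly formed oligodendrocytes, lies at chromosome 19, 55741820 to 55933654, plus strand (ENSMUSG00000024985). It had 206, 171 and 216 CPM in EAE replicates 1, 2 and 3, against 73.8, 99.1 and 99.2 CPM in Control replicates 1, 2 and 3. The groups did not overlap here either, and the spread between libraries was similar in both. The mean was 198 ± 23.3 CPM in EAE and 90.7 ± 14.7 CPM in Control (SD, n = 3 each). The log2 fold change was 1.12 ± 0.17 (SE; 95% interval 0.73 to 1.51; edgeR adjusted p = 0.00652). Without 1 library it was between 0.99 and 1.22 and was called in all 6 fits (edgeR adjusted p up to 0.0365). The annotation has 22 transcripts of Tcf7l2, and the counts do not separate them.

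No other gene tested among the nearest neighbours of the 9 factors was called. The tested protein-coding neighbour nearest to Tcf7l2, Vti1a, lies 115 kb away and was at 47.0 ± 12.8 CPM in EAE and 37.3 ± 2.23 CPM in Control (edgeR adjusted p = 0.477). The nearest neighbour of Zfp488, Rbp3, lies 2.85 kb away and had no read in EAE and 0.0137 ± 0.0237 CPM in Control. No other annotated gene shares exonic bases with Zfp488 or Tcf7l2.

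Nkx2-2 is a homeodomain factor that times the start of differentiation and represses Pdgfra, the growth factor receptor of precursors (ENSMUSG00000027434, chromosome 2, 147177546 to 147194243, minus strand). It had 83.1, 53.6 and 58.0 CPM in EAE replicates 1, 2 and 3, against 46.3, 43.9 and 46.5 CPM in Control replicates 1, 2 and 3. The groups did not overlap, but EAE replicate 1 was well above the other EAE libraries. The log2 fold change was 0.51 ± 0.19 (SE; 95% interval 0.07 to 0.95) and did not pass over all genes (edgeR adjusted p = 0.173). Without EAE replicate 1 it was 0.31, which moved the log2 value by more than any other omission. Nkx2-2 shares 9.67% of its exonic bases with its antisense gene Nkx2-2os, and the strand setting of the counting is not given. Nkx2-2os was at 11.9 ± 1.44 CPM in EAE and 9.97 ± 3.51 CPM in Control (edgeR adjusted p = 0.716), so reads of the pair cannot be told apart with certainty.

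Nkx2-2, Zfp488 and Tcf7l2 were the 3 of 9 factors whose group ranges did not overlap, all higher in EAE. Among all tested genes 26.8% did not overlap: 13.4% had EAE libraries wholly above Control libraries, and 13.4% wholly below.

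No difference between the groups was called for the factors that mark the whole lineage. Olig2, a basic helix-loop-helix factor needed to specify the lineage (ENSMUSG00000039830, chromosome 16, 91225457 to 91228677, plus strand), had 248, 265 and 298 CPM in EAE replicates 1, 2 and 3, against 235, 244 and 371 CPM in Control replicates 1, 2 and 3. Control replicate 3 was highest of the 6, and the groups overlapped. Fitted over all libraries, the log2 fold change was -0.07 ± 0.20 (SE; 95% interval -0.52 to 0.38; edgeR adjusted p = 0.896). Without Control replicate 3 it was 0.17, and without EAE replicate 1 it was 0.0066, so no direction can be given.

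Olig1, the neighbouring paralog known for its role in myelin repair (ENSMUSG00000046160, chromosome 16, 91269772 to 91271933, plus strand), lies 41.1 kb from Olig2. It had 750.3, 877 and 688 CPM in EAE replicates 1, 2 and 3, against 720.1, 699 and 979 CPM in Control replicates 1, 2 and 3. Again Control replicate 3 was the highest library and the groups overlapped. The log2 fold change was -0.05 ± 0.18 (SE; 95% interval -0.47 to 0.37; edgeR adjusted p = 0.921). It was 0.12 without Control replicate 3 and 0.03 without EAE replicate 3. The log2 ratio of Olig1 to Olig2 reads within a library was 1.51 ± 0.27 in EAE and 1.51 ± 0.11 in Control (SD, n = 3 each; exact 2-sided permutation p = 1). The non-coding gene Gm15966, which shares 7.26% of the exonic bases of Olig1, was at 0.0123 ± 0.0212 CPM in EAE and 0.0410 ± 0.0711 CPM in Control. The chromosome 16 neighbour Ifnar2, an interferon receptor chain, was at 57.2 ± 11.2 CPM in EAE and 69.3 ± 9.89 CPM in Control (edgeR adjusted p = 0.492).

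Sox10, an HMG-box factor kept throughout the lineage (ENSMUSG00000033006, chromosome 15, 79154908 to 79165240, minus strand), had 514, 492 and 725 CPM in EAE replicates 1, 2 and 3, against 474, 400.4 and 532 CPM in Control replicates 1, 2 and 3. EAE replicate 3 was the highest library, and the other EAE libraries lay within the Control range. This gave a log2 fold change of 0.30 ± 0.19 (SE; 95% interval -0.14 to 0.74; edgeR adjusted p = 0.458), and 0.11 without EAE replicate 3.

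Myrf is a membrane-bound factor that cuts itself to release a nuclear fragment and is required for myelin gene expression (ENSMUSG00000036098, chromosome 19, 10208272 to 10240748, minus strand). It had 1173, 1376 and 1350.04 CPM in EAE replicates 1, 2 and 3, against 1052, 891 and 1274 CPM in Control replicates 1, 2 and 3. Only EAE replicate 1 fell within the Control range. The log2 fold change of 0.28 ± 0.18 did not pass (SE; 95% interval -0.13 to 0.68; edgeR adjusted p = 0.453).

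Nkx6-2, a homeodomain factor of maturing oligodendrocytes (ENSMUSG00000041309, chromosome 7, 139579376 to 139582797, minus strand), had 55.3, 50.3 and 60.04 CPM in EAE replicates 1, 2 and 3, against 51.1, 41.6 and 57.6 CPM in Control replicates 1, 2 and 3. The groups overlapped, with a log2 fold change of 0.14 ± 0.17 (SE; 95% interval -0.25 to 0.53; edgeR adjusted p = 0.731). It shares 12.9% of its exonic bases with Inpp5a on the other strand, which was at 49.5 ± 11.5 CPM in EAE and 43.3 ± 1.28 CPM in Control, so its values are uncertain.

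Zfp536, a zinc finger factor known as a repressor of neuronal differentiation (ENSMUSG00000043456, chromosome 7, 37472135 to 37773641, minus strand), had 185, 235 and 174 CPM in EAE replicates 1, 2 and 3, against 214, 195 and 251 CPM in Control replicates 1, 2 and 3. EAE replicates 1 and 3 were below every Control library and EAE replicate 2 was not. This gave a log2 fold change of -0.15 ± 0.17 (SE; 95% interval -0.53 to 0.23; edgeR adjusted p = 0.698).

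**Figure D2:**
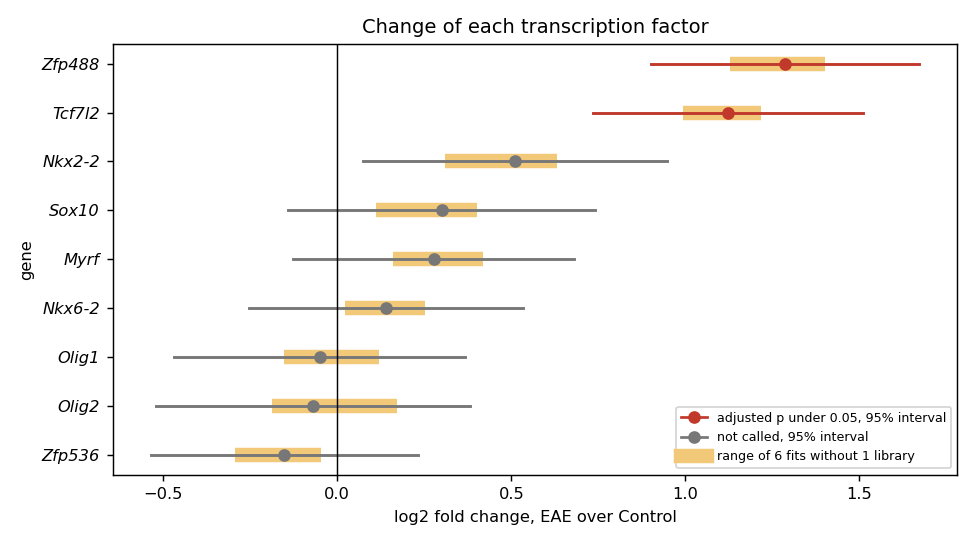
Fitted log2 fold change of EAE over Control for the 9 transcription factors (points), with 95% intervals (lines) and the range over the 6 fits that each left out 1 library (broad bars). Zfp488 at 1.29 and Tcf7l2 at 1.12 are the called genes (red), and the ranges without 1 library cross 0 for Olig1 and Olig2.

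Ratios of reads within a library do not depend on how libraries are scaled. Relative to Sox10, the log2 ratio of Zfp488 was -1.14, -1.26 and -1.26 in EAE replicates 1, 2 and 3, against -2.24, -1.91 and -2.45 in Control replicates 1, 2 and 3. That of Tcf7l2 was -1.32, -1.52 and -1.75 in EAE, against -2.68, -2.01 and -2.42 in Control. Both ratios were higher in all 3 EAE libraries than in any Control library, by 0.98 and 0.84 in the mean. The exact 2-sided permutation p was 0.1 for each, the smallest that 3 against 3 allows, and 0.4 when adjusted over 8 ratios by the Benjamini-Hochberg method. For the other 6 factors the ratio to Sox10 overlapped between the groups. The ratio of Myrf to Sox10 differed by 0.0019 in the mean, at 1.19 ± 0.29 in EAE and 1.19 ± 0.06 in Control (SD, n = 3 each). This match holds for Sox10 as the reference and does not extend to Olig2. The fitted log2 fold change was 0.28 for Myrf and 0.30 for Sox10, but -0.07 for Olig2.

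Scaling each library to its summed reads of Olig1, Olig2 and Sox10 set the other factors against these 3 in a fit over all genes. Zfp488 and Tcf7l2 rose in that fit too, with log2 fold changes of 1.18 and 1.04 (edgeR adjusted p = 0.0115 and 0.0177). Nkx2-2 was at 0.44, Myrf at 0.21, Nkx6-2 at 0.07 and Zfp536 at -0.22, and none of the 4 passed (edgeR adjusted p from 0.466 to 0.934).

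**Figure D3:**
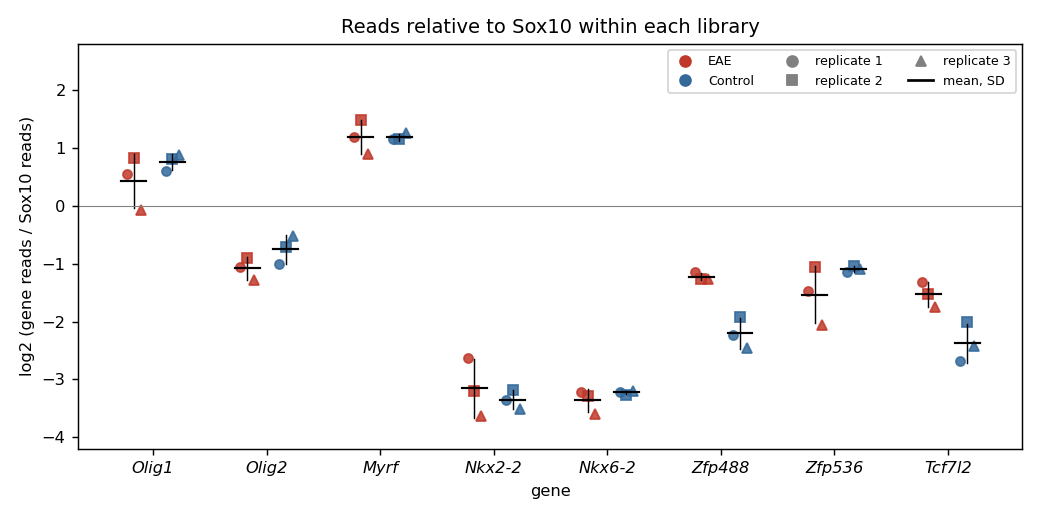
Log2 ratio of reads of each factor to reads of Sox10 in the same library, with a prior count of 2 reads, EAE (red) left of Control (blue); bars give the mean and SD (n = 3). Zfp488 and Tcf7l2 have all EAE points above all Control points, and the Myrf means coincide at 1.19.

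Per length (RPKM, the CPM divided by the deposited feature length in kilobases), Olig1 was the most abundant of the 9 factors, at 355 ± 44.4 RPKM in EAE and 368 ± 71.7 RPKM in Control (SD, n = 3 each). Its range lay above those of all other factors in each group. Myrf followed at 232 ± 19.7 RPKM in EAE and 192 ± 34.4 RPKM in Control, with Sox10 at 213 ± 47.4 RPKM in EAE and 173 ± 24.3 RPKM in Control, and the ranges of the pair overlapped. Myrf and Sox10 changed places when the exonic length of the GENCODE M21 annotation was used. Olig2 was the fourth in both groups, at 111 ± 10.4 RPKM in EAE and 116 ± 31.3 RPKM in Control. Olig2 stood above 98.5% of tested genes in each group, and the other 3 above more.

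The order of the others differed between the groups. Zfp488 was the fifth in EAE at 57.4 ± 11.5 RPKM, with a range above those of the lower factors, and the seventh in Control at 23.5 ± 1.06 RPKM. Its range in Control overlapped those of Nkx6-2 and Zfp536, so its place there is not settled. Tcf7l2 was at 22.6 ± 2.67 RPKM in EAE, where its range overlapped those of Zfp536 and Nkx2-2, and was the lowest in Control at 10.4 ± 1.68 RPKM. In Control the level of Tcf7l2 was below that of Nkx2-2 in all 3 libraries. Nkx6-2, Zfp536 and Nkx2-2 were between 15.9 and 28.97 RPKM in the mean of either group. Their order depended on the length used. With the GENCODE M21 length, Zfp536 was the lowest in EAE and came below Nkx6-2 in Control. Zfp488 and Tcf7l2 kept their places in both groups.

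Factors were also compared by shape, as the root mean square difference between log2 CPM values centred on their mean over the 6 libraries, where a small value means a like pattern. Among 36 pairs, Olig1 and Zfp536 were closest at 0.09, and Zfp488 and Zfp536 farthest apart at 0.78. Zfp488 was closest to Tcf7l2 among the factors, at 0.18. Among 8414 annotated genes with a mean of at least 10 CPM, the nearest to Myrf was Mbp, which encodes myelin basic protein, at 0.036. Alg2 and Tiprl were almost as near, at 0.038 and 0.045, so the measure does not single out Mbp. Mbp had 3097, 3597 and 3541 CPM in EAE replicates 1, 2 and 3, against 2891, 2489 and 3456 CPM in Control replicates 1, 2 and 3. As in Myrf, Control replicate 2 was the lowest library.

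The nearest gene to Tcf7l2 was Tns3, a focal adhesion adaptor, at 0.07. Tns3 had 647, 526 and 705 CPM in EAE replicates 1, 2 and 3, against 235, 278 and 319 CPM in Control replicates 1, 2 and 3. It was called higher (log2 fold change 1.18, edgeR adjusted p = 0.00622). Its choice by likeness to Tcf7l2 in the same libraries makes such a call likely, so the call is not a separate result. Zdhhc2, a palmitoyltransferase, and Sh3d19 came next. For Zfp488 the nearest genes were the interferon-inducible Ifi27, Ptprt, a receptor tyrosine phosphatase, and Dclre1c, a DNA repair nuclease, at 0.10, 0.10 and 0.13. Nearest to Nkx2-2 was the nuclear RNA Neat1, and nearest to Olig1, Olig2, Sox10, Nkx6-2 and Zfp536 were Clcn6, Spice1, Ccnk, Atp5f1 and Lrrc61.

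Among 24 DNA-binding partners and co-regulators of these factors, none rose and 1 fell, with a median log2 fold change of 0.08. The most abundant were Zeb2, a repressor that promotes myelination, the E protein Tcf4, a dimer partner of Olig factors, and Sox8, a close relative of Sox10. Zeb2 was at 1177 ± 143 CPM in EAE and 1051 ± 57.4 CPM in Control, and Tcf4 at 505 ± 30.2 CPM in EAE and 399.9 ± 35.03 CPM in Control. Sox8 was at 274 ± 103 CPM in EAE and 248 ± 21.8 CPM in Control. None of the 3 passed (edgeR adjusted p = 0.642, 0.223 and 0.840). Sox8 shares 10.6% of its exonic bases with an antisense gene.

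The partner that fell was Lef1, a relative of Tcf7l2 in the beta-catenin pathway. It had 15.7, 15.7 and 12.1 CPM in EAE replicates 1, 2 and 3, against 91.6, 63.9 and 75.5 CPM in Control replicates 1, 2 and 3. The groups were far apart, and the fold was 5.30 (log2 fold change -2.41 ± 0.20, SE, edgeR adjusted p = 0.00100). Lef1 shares 13.7% of its exonic bases with an antisense gene.

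Of 17 tested genes of the beta-catenin pathway, 4 fell and 0 rose, with a median of -0.11. DESeq2 and 5 edgeR alternatives called 1 gene higher, and 3 to 5 fell under all alternatives run. Besides Lef1 the 4 were Tcf7, another family member, Apcdd1, a membrane Wnt inhibitor, and Axin2, a feedback inhibitor induced by Wnt signals. Apcdd1 had 22.7, 19.6 and 25.4 CPM in EAE replicates 1, 2 and 3, against 93.5, 64.4 and 66.9 CPM in Control replicates 1, 2 and 3, a 3.32-fold decrease (edgeR adjusted p = 0.00237). Tcf7 fell 4.82-fold (edgeR adjusted p = 0.00948). Axin2, chosen for mention after its values were seen, was at 24.5 ± 6.10 CPM in EAE and 52.7 ± 7.74 CPM in Control (edgeR adjusted p = 0.0225), and lost its call without EAE replicate 1 or any 1 Control library (edgeR adjusted p up to 0.0894). Endothelial markers moved the same way as these 4 genes: 15 of 16 tested were lower, with a median of -2.46, and 14 of 16 pericyte and smooth muscle markers were lower, with a median of -2.64 (9 without EAE replicate 1 or Control replicate 1). Their part in the decrease of the 4 genes was not tested.

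Of 25 tested other transcription factors of the lineage, 2 rose and 2 fell, with a median of 0.24. The count lower was 0 without EAE replicate 1 or 3 or Control replicate 1 or 2, and 1 without EAE replicate 2 or Control replicate 3. The count higher was 1 without EAE replicate 1 or Control replicate 1 or 3. Sox6, which holds precursors in an immature state, rose 2.76-fold and Sox4, a factor of immature neural cells, 3.71-fold (edgeR adjusted p = 0.0274 and 0.00763). Sox6 lost its call without any 1 library other than EAE replicate 2, and Sox4, which shares 54.6% of its exonic bases with a non-coding gene, kept it in all 6 fits. Hey2, a Notch-induced repressor, fell 2.58-fold (edgeR adjusted p = 0.0458) and was called in 1 of the 6 fits, that without Control replicate 3. Nkx6-1, a relative of Nkx6-2 named after its values were seen, fell to 0.218 ± 0.104 CPM in EAE, against 1.94 ± 0.387 CPM in Control (edgeR adjusted p = 0.0356), and lost its call in each of the 6 fits without 1 library (edgeR adjusted p up to 0.129).

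Among 17 tested inhibitors of differentiation, 2 rose and 3 fell, with a median of -0.01. Gpr17, a receptor of committed precursors, had 997, 860.5 and 697 CPM in EAE replicates 1, 2 and 3, against 242, 366 and 405 CPM in Control replicates 1, 2 and 3. Sirt2, a deacetylase of the lineage, had 1413, 1635 and 1330.2 CPM in EAE, against 639.8, 655 and 665 CPM in Control. Both rose (edgeR adjusted p = 0.00984 for Gpr17 and 0.00347 for Sirt2). They were called in all 6 fits without 1 library, where the edgeR adjusted p reached 0.0489 for Gpr17 and 0.0357 for Sirt2. Both are also markers of committed and newly formed oligodendrocytes, of which 11 of 18 tested rose and 0 fell (6 rose without EAE replicate 1, 5 without Control replicate 1 and 7 without Control replicate 3). Hes1, a Notch effector, fell 10.2-fold, Id3, a BMP-induced inhibitor of helix-loop-helix factors, 4.21-fold and Jag1, a Notch ligand, 2.63-fold (edgeR adjusted p = 0.00127, 0.0208 and 0.0287). The calls of Id3 and Jag1 were lost without EAE replicate 1 or Control replicate 1, and that of Jag1 also without Control replicate 2 (edgeR adjusted p up to 0.118). Endothelial markers (15 of 16 lower) and pericyte and smooth muscle markers (14 of 16 lower) moved the same way as Hes1, Id3 and Jag1, as they did with Hey2 and Nkx6-1, and their part in these decreases was not tested.

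Of 16 myelin genes known as targets of Sox10 and Myrf, 1 rose and 0 fell, with a median of 0.04. Over all tested genes, 2.82% were called higher and 4.33% lower. The count lower of the myelin genes was not 0 in 2 alternatives, and Cntn2 was called lower without EAE replicate 2. Mog, which encodes a glycoprotein of the outer myelin surface and is named after its values were seen, was at 713 ± 243 CPM in EAE and 717 ± 15.7 CPM in Control (edgeR adjusted p = 0.989). The gene that rose was Nfasc, which encodes the axoglial adhesion protein neurofascin. Nfasc had 2814, 3525 and 4502 CPM in EAE replicates 1, 2 and 3, against 1489, 1858 and 1678 CPM in Control replicates 1, 2 and 3 (edgeR adjusted p = 0.0162), and the call was lost without any 1 Control library (edgeR adjusted p up to 0.102).

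**Figure D4:**
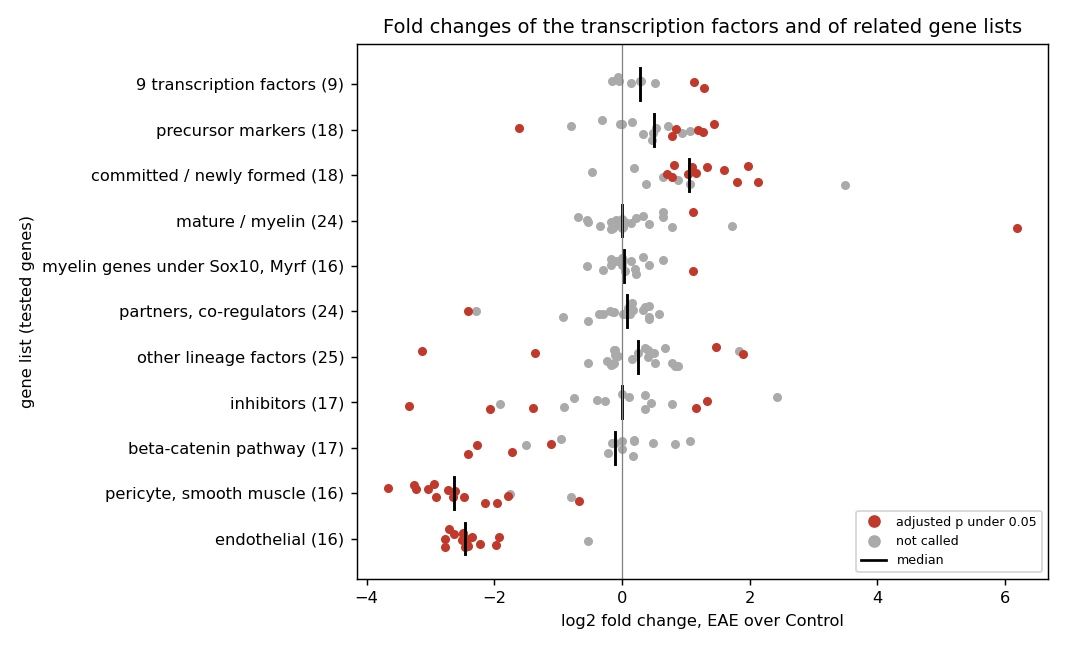
Log2 fold change of EAE over Control for the 9 transcription factors and for the tested genes of 10 gene lists, with called genes in red, other genes in grey and medians as black bars. The median is 0.28 for the 9 factors, 1.05 for committed and newly formed oligodendrocyte markers, 0.01 for mature markers and -2.46 for endothelial markers.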

How the data were processed

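The authors deposited raw read counts per Ensembl gene and library with a feature length per gene. Per the submitters' processing notes, FastQC, STAR, featureCounts, edgeR 3.24.3 and mm10 were used in roles that are not stated. The sources used here do not give the strand setting or the annotation release. Total counts were 22141522 to 28734798. From the counts, edgeR 4.0.16 in R 4.3.3 (filterByExpr with a minimum of 10 and a total of 15, trimmed mean of M-values, robust quasi-likelihood test, Benjamini-Hochberg over 16966 genes, called under 0.05) compared EAE with Control, after a check on simulated data. Each SE was the absolute log2 fold change over the root of F. CPM, RPKM and log2 ratios with a prior count of 2 were computed here. Symbols and positions came from GENCODE M21 (GRCm38) for 36345 identifiers (94.9%). Alternatives were DESeq2 1.42.0, limma-voom 3.58.1, other scalings and filters, a replicate block and each library left out.

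The members and the 15 gene lists (252 entries, 10 of cell type markers) were chosen with earlier results of these data known. Per pathway list, the called genes at a mean of at least 5 CPM were named from both ends of the log2 fold change, up to 3 at each, plus the 3 most abundant partners. Counting limits cover counting error only. Precision of the factors is set by the spread between libraries, since each had at least 1007 reads in every library.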

Additional observations from a re-analysis of the deposited data

How the results depend on the processing

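Zfp488 and Tcf7l2 were the 2 called factors in every alternative run, with log2 fold changes of 1.13 to 1.40 and 0.99 to 1.22. Of 141 fold changes of factors under alternatives, 137 kept their direction and their side of the threshold. The 4 that reversed were Olig1 without EAE replicate 3 (0.03) and without Control replicate 3 (0.12), and Olig2 without EAE replicate 1 (0.0066) and without Control replicate 3 (0.17), with ranges of -0.15 to 0.12 and -0.19 to 0.17 without 1 library. All genes called numbered 1212, 2162 with DESeq2 and 440 to 1150 without 1 library (440 without Control replicate 1, 576 without Control replicate 2, 630 without EAE replicate 1). The replicate block called 818 genes and the same number of factors, 2. Same-numbered libraries did not deviate together (correlations -0.04 to 0.02, and only the 2 libraries numbered 1 were each closest to their own number), so the numbers were not treated as pairs.

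Ratios within a library reversed for Olig1 to Olig2 in place of Sox10 (0.0011), Nkx6-2 to Olig2 (0.19) and to the 3 summed factors (0.073). Without 1 library Nkx2-2 to Sox10 was -0.069 to 0.44, Myrf to Sox10 -0.14 to 0.15 and Olig1 to Olig2 -0.11 to 0.15. The cause was not tested. Counts of list genes under the same alternatives were added after seeing the data. Without 1 library, 5 to 12 markers of committed and newly formed oligodendrocytes were called higher.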
